A study of Mus musculus with 12 samples.

Results

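BN1 is an immortalized murine hepatoblastoma (HB) cell line, grown from a liver tumor that was driven by mutant forms of β-catenin and NRF2. The comparison described here set sorted cells that had been returned to normal oxygen (SN) against unsorted cells still in hypoxia (UH), and asked which hypoxic transcript levels were lost and which were kept. It used 6 of 12 RNA-seq libraries, 3 SN and 3 UH, and the 3 libraries of unsorted normoxic cells (UN) served as the reference. All groups were labelled Cdkn2a KO and carried EGFP under the Tie2 promoter, which is active in endothelial cells (ECs), in a pool of stable clones. UN cells grew as monolayers in 21% oxygen, and UH cells spent 2 days in 1% oxygen. SN cells were the brightest EGFP+ cells taken by fluorescence-activated sorting after 2 days in 1% oxygen, and were then expanded for about 10 days in 21% oxygen. The labels call every library EGFP+, the unsorted ones included. SN and UH cells thus differed in oxygen, in the sort and in the expansion, and these 3 cannot be told apart. A lower transcript level in such bulk RNA can come from fewer cells that hold it or from less of it per cell, which cannot be told apart either. Of 45706 genes listed, the 18909 with a mean of at least 0.1 TPM (transcript abundance corrected for length and scaled to a total of 1000000 per library) over the 12 libraries were compared.

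As background, cells sense oxygen through prolyl hydroxylases, which mark the α subunits of the hypoxia-inducible factors (HIFs) for degradation through VHL as long as oxygen is present. In hypoxia the HIFs accumulate, pair with ARNT and bind a short DNA element, and genes of glucose uptake, glycolysis, pH control, mitophagy, collagen maturation and blood vessel growth rise. When oxygen returns the α subunits are degraded within minutes, while RNAs and chromatin states can outlast them.

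The core of the HIF-binding element, ACGTG or GCGTG, was looked for on both strands of RefSeq promoter windows (GRCm38.p6), which run from 250 bases before to 50 after a gene's start. It is printed in capitals below, in whichever orientation it occurred (CACGT or CACGC on the other strand). The first 3 windows belong to genes whose hypoxic level was lost in SN cells and the last 2 to genes whose level was kept, and all 5 were chosen after the values were seen. Pgf, which encodes placental growth factor, had 1 core in this window (chr12:85177264-85177563, minus strand) and none in its other one.

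Pgf: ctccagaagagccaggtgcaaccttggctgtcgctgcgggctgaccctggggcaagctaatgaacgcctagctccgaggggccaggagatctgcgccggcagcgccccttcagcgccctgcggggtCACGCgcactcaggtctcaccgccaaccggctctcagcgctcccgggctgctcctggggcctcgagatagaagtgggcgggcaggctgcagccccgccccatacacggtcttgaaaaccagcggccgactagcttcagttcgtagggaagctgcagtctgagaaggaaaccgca

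Ero1l (Ero1a in RefSeq), which encodes an oxidase for protein folding in the endoplasmic reticulum, had 3 (chr14:45318523-45318822, minus strand). Bnip3, which encodes a mitophagy receptor, had 5, among them 2 that overlap in a palindrome (chr7:138909457-138909756, minus strand).

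Ero1l: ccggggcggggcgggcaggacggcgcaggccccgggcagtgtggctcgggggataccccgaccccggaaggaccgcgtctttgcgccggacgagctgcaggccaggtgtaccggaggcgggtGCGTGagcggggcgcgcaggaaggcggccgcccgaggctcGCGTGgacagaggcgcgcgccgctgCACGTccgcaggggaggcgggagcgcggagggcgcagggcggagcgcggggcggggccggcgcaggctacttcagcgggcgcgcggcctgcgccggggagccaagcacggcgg

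Bnip3: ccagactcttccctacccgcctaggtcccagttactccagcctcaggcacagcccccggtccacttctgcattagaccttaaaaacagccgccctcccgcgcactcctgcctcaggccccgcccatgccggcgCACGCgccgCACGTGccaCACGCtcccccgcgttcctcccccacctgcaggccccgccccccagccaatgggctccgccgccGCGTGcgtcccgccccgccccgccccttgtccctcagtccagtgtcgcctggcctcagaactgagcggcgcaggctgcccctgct

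Ampd3, which encodes AMP deaminase, had the same palindrome of 2 overlapping cores in 1 of its 3 windows (chr7:110772354-110772653, plus strand). Vegfc, which encodes a growth factor for lymphatic vessels, had none in its only window (chr8:54077282-54077581, plus strand).

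Ampd3: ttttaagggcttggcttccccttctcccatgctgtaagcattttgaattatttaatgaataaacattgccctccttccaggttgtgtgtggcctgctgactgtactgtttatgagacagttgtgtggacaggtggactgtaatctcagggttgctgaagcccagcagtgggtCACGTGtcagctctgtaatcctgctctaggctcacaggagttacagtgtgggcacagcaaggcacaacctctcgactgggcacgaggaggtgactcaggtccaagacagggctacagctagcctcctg

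Vegfc: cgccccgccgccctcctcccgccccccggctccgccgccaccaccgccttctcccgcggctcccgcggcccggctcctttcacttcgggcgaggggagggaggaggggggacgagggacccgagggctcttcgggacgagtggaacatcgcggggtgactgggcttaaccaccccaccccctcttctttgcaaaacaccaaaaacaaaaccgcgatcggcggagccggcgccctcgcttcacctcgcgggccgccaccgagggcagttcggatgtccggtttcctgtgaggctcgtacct

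Of all 32851 RefSeq windows, 43.8% held at least 1 core, and of the 15714 windows that matched a tested gene 58.7% did. The 34 windows of the 21 tested genes for glucose uptake and glycolysis held one in 76.5%, and no other list was counted. Windows of genes with a lost hypoxic level held one in 60.8% and those of genes with a kept level in 56.2%. Both shares were near the 58.7% of all tested genes. A comparison between classes of genes is void, since only 73.2% of the genes with a lost hypoxic level and 67.9% of those with a kept one had a window. A match is a string of letters and does not show binding.

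Transcripts of the 3 SN libraries were close to each other, with 79 to 175 of 10480 well-expressed genes (mean TPM of at least 5) differing over 2-fold between any pair. The UN libraries were less even. UN1 differed over 2-fold from UN2 at 512 genes and from UN3 at 462, whereas UN2 and UN3 differed at 92. Among the genes that set UN1 apart were Col3a1, Acta2 and Dlk1, so each class was also counted without it. UH1 and UH3 differed at 520 genes. Cdkn2a, the targeted gene, was read at 196 to 327 TPM in UN cells, 66.4 to 78.7 in UH cells and 10.4 to 16.5 in SN cells. Since all groups carried the mutations, these levels do not check the labels.

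Several defining markers of mature hepatocytes, endothelial cells and leukocytes were at or near 0 in the libraries, while others were read. Of 7 hepatocyte markers, Alb peaked at 4.23 TPM and Ttr at 0.474 TPM over the 9 libraries, and Trf (transferrin) reached 61.4 TPM in SN cells. Of 8 endothelial markers, Tek, which encodes the TIE2 receptor, reached 2.70 TPM in SN cells, while Cdh5, Cldn5, Emcn and Tie1 stayed at or under 0.0613 TPM. Of 5 leukocyte markers, the pan-leukocyte gene Ptprc peaked at 0.121 TPM, Cd3e at 0.111 TPM and Adgre1 was listed at 0, but Cd68, a lysosomal gene of macrophages, reached 13.7 TPM and Csf1r, a macrophage growth factor receptor gene, 7.48 TPM, both in UH cells. The 5 summed to 4.35 to 7.81 TPM in UN, 20.3 to 21.3 in UH and 9.31 to 13.8 in SN cells. The 6 fibroblast and pericyte markers summed to 447.9 to 1349 TPM in UN cells, 386.0 to 422.1 in UH cells and 191.8 to 199.9 in SN cells. These markers split between UH and SN cells. Acta2 was at 284.3 to 326.6 TPM in UH and 24.19 to 34.66 in SN cells, and Pdgfra was also lower in SN. Pdgfrb was higher in SN cells (40.26 to 47.73 TPM, against 12.02 to 17.35 in UH). So was Dcn (115.6 to 125.8 TPM, against 49.92 to 60.99 in UH). Lum and Rgs5 peaked at 0.1352 and 0.2276 TPM. The part of all these marker genes in the results was not tested.

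Between SN and UH cells, limma called 2319 genes higher (12.3% of those tested) and 1734 lower (9.17%) with both a fold difference above 2 and a p below 0.05 after Benjamini-Hochberg adjustment. These shares are the background for all counts of list members below, and no list was tested against them. Fold changes here are on the scale of log2(TPM + 1), which understates the change of low genes. With other scalings the split between higher and lower turned to 1632 and 2188 (median of ratios) or 1831 and 1900 (quantile). Over all genes the median of the log2 fold changes was 0.09 in SN against UH cells (-0.02 after median-of-ratios scaling) and -0.19 in UH against UN cells (0 after it). Transcripts encoded in mitochondria, which take part in the total that TPM is scaled to, made up 1.67% to 2.53% of the TPM in UH libraries and 7.64% to 8.38% in SN libraries.

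Hypoxia of unsorted cells had raised 1032 genes (5.46% of those tested) and lowered 2222 (11.8%) against UN. This balance turned round with other scalings, to 1566 raised and 1221 lowered (median of ratios) or 1445 and 1343 (quantile). SN cells, set against the same UN libraries, had 606 genes higher (3.20%) and 1431 lower (7.57%). Each hypoxic gene was classed by its level in SN cells. The level was lost where SN differed from UH in the reverse direction and did not stand beyond UN on the hypoxic side, kept where SN stood beyond UN and was not called against UH, and partly kept where both were called. It moved further where SN went beyond UH. These classes share the UN and UH libraries, so their counts are descriptions.

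Most raised levels were lost. Of 1032, 787 (76.3%) were lost, 78 (7.56%) were kept, 16 were partly kept, 6 moved further and 145 could not be placed. Of the 787, 647 ended near UN, which here means only that SN was not called against UN. The other 140 (17.8%) fell past it, to a level called lower than in UN cells. A gene counted as near UN can still differ from it in its mean, as Adm did with 8.30 TPM in UN and 0.831 in SN cells. That gap rested on UN1, since the SN vs UN log2 fold change of Adm was -1.47 with it and -0.37 without it. Among lowered levels the share that returned was smaller. Of 2222, 1232 (55.4%) returned, 347 (15.6%) stayed low, 19 stayed low in part, 113 (5.09%) fell further and 511 could not be placed. The share of the hypoxic difference still present in SN cells was taken on the log2(TPM + 1) scale. Its median was -0.23% for raised genes (quartiles -30.4% and 25.5%) and 16.5% for lowered genes (-9.60% and 60.3%). Both medians share UN and UH means with the classes. Without UN1, 735 of the 787 lost genes and 70 of the 78 kept genes stayed in their class, but other genes joined. The raised genes that kept their level rose to 111, those that moved further to 19 and those partly kept to 27. The lowered genes that stayed low rose to 539, and the median share for lowered genes rose to 28.5%.

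**Figure D1:**
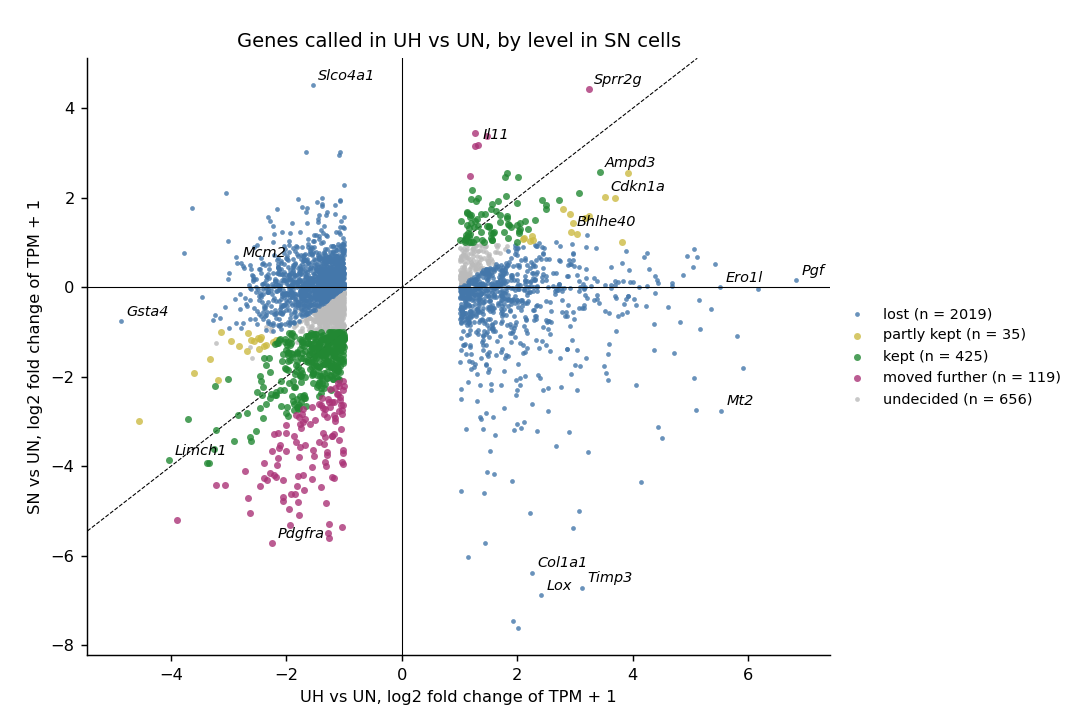
Each point is 1 of the genes called in UH vs UN, with its UH vs UN log2 fold change on the horizontal axis and its SN vs UN log2 fold change on the vertical axis. Points on the horizontal line had the UN level in SN cells and points on the dashed diagonal had the UH level. Most raised genes (right) lie near the horizontal line or far under it, as Col1a1, Lox and Timp3 do, and green points (kept) follow the diagonal.

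**Figure D2:**
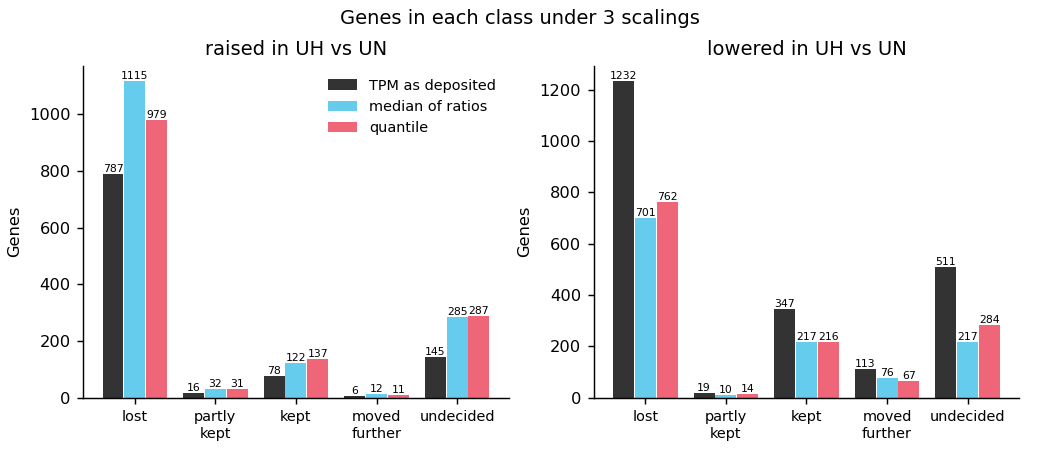
Bars give the number of genes (vertical axis) in each class, for genes raised (left) and lowered (right) in UH cells, with TPM as deposited, after median-of-ratios scaling and after quantile normalization. The raised genes that were lost numbered 787, 1115 and 979 and the lowered genes that returned 1232, 701 and 762, and the lost class was the largest in every panel and scaling.

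Glucose uptake and glycolysis lost most of their hypoxic rise. Of 21 tested members, 18 had risen in UH cells, and 18 were lower in SN than in UH cells, with a median log2 fold change of -2.13 against 0.09 for all genes. No member was called higher, and 17 of the 18 raised levels were lost. The return was not complete on the summed scale. The list summed to 10294 to 10731 TPM in UN, 46464 to 48366 in UH and 11897 to 16960 in SN libraries. Every SN sum was thus above every UN sum, while the median SN vs UN log2 fold change of the members was 0.16. Slc2a1, which encodes the glucose transporter GLUT1 (chr4:119108711-119137983, plus strand in GENCODE M21), was at 48.8, 31.0 and 31.5 TPM in the UN libraries, 681, 698 and 734 in UH and 57.2, 57.7 and 73.0 in SN. Every SN library was far under every UH library and above every UN library. The SN vs UH log2 fold change was -3.48 ± 0.16 (SE, limma adjusted p = 1.5e-08), and the difference from UN was 0.76. Pdk1, whose kinase keeps pyruvate out of the citric acid cycle, measured 18.9, 23.7 and 25.6 TPM in UN, 94.5, 113 and 151 in UH and 12.6, 13.0 and 14.96 in SN libraries (SN vs UH -3.03, limma adjusted p = 6.9e-08). Its SN values all lay under the lowest UN value. Pkm, the pyruvate kinase gene, was the raised member not classed as lost, at 4889, 4737 and 4794 TPM in UH and 2522, 2567 and 2616 in SN cells. It lay between UN and UH, and its log2 fold change of -0.90 missed the 2-fold limit (-1.14 after median-of-ratios scaling, which passed it).

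Lactate handling and glycogen went the same way. Ldha, the lactate dehydrogenase A gene, fell from 3362, 3061 and 3088 TPM in UH to 807, 762 and 772 in SN libraries (log2 fold change -2.02, limma adjusted p = 1.2e-08). Slc16a3, which encodes the lactate exporter MCT4, passed its normoxic level. It was at 6.27, 1.53 and 1.91 TPM in UN, 70.4, 84.6 and 75.5 in UH and 0.471, 0.519 and 0.279 in SN cells, and all SN values were under all UN values (SN vs UN -1.41, limma adjusted p = 0.0045). Without UN1, the highest UN library, the SN vs UN log2 fold change of Slc16a3 was -0.94, under the 2-fold limit. Of 9 genes for acid handling, 5 were lower and 2 higher in SN than in UH cells. Of 13 glycogen genes, 6 had risen in hypoxia, and all 6 levels were lost. Gbe1, the branching enzyme gene, measured 179, 214 and 254 TPM in UH and 8.92, 7.97 and 10.1 in SN libraries, a log2 fold change of -4.43 (limma adjusted p = 3.0e-09), and its UN values were 6.09, 5.07 and 4.59. All SN values stayed above all UN values, by less than the 2-fold limit.

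Some genes of oxygen sensing fell, and a pair of HIF-induced repressors stayed partly raised. Of 12 genes for oxygen sensing and the HIF pathway, 6 were lower and 1 higher in SN than in UH cells. Egln1, the main HIF prolyl hydroxylase gene, was at 38.2, 35.2 and 36.4 TPM in UN, 281, 332 and 335 in UH and 50.7, 51.2 and 48.7 in SN libraries (SN vs UH -2.63, limma adjusted p = 1.7e-09). Egln3, a second hydroxylase gene, ended under its normoxic level, at 10.8, 24.2 and 27.5 TPM in UN, 114, 109.7 and 126 in UH and 3.12, 2.99 and 3.74 in SN cells. The SN libraries were below all others for Egln3 (SN vs UN -2.26, limma adjusted p = 1.2e-04). Egln2 and Hif1an, which encode the other oxygen-sensing hydroxylases of the list, were not called, with SN vs UH log2 fold changes of 0.10 (-0.13 after either other scaling) and 0.50. Epas1, which encodes HIF-2α, had not been called in hypoxia. It measured 2.49, 3.54 and 4.22 TPM in UH and 0.788, 1.06 and 1.46 in SN cells, a log2 fold change of -1.07 (limma adjusted p = 0.0045) that shrank to -0.96 without SN1, -0.94 without UH3 and -0.97 after quantile normalization. Arnt2, which encodes a partner of the HIF α subunits, was the member that rose, from 3.51, 4.82 and 5.16 to 23.5, 22.5 and 21.1 TPM (log2 fold change 2.10, limma adjusted p = 2.5e-06).

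Bhlhe40 and Bhlhe41 encode a pair of basic helix-loop-helix repressors that hypoxia induces, and both were partly kept. Bhlhe40 was at 46.7, 34.7 and 39.1 TPM in UN, 282, 295 and 357 in UH and 85.9, 73.6 and 138 in SN libraries. The 3 groups did not overlap, and 42.4% of the hypoxic difference on the log2 scale remained. The SN vs UN log2 fold change was 1.24 (limma adjusted p = 0.0061), and without SN3, the highest SN library, it was 0.98. Bhlhe41 was at 3.31, 2.84 and 3.95 TPM in UN and 5.43, 6.97 and 12.3 in SN libraries. Its SN vs UN log2 fold change of 1.02 (limma adjusted p = 0.042) was not called without SN2, SN3, UH2 or any single UN library, and it fell to 0.72 without SN3.

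Among secreted angiogenic factors the hypoxic peak was lost for 5 of the 6 raised genes and kept for 1, while after either other scaling 8 had risen, of which 5 were lost and 2 kept. Over all 15 members, 7 were lower and 4 higher in SN than in UH cells. Pgf, whose promoter is printed above, had the largest hypoxic rise among the lost genes under the rule for named genes. It was at 0.547, 0.400 and 0.482 TPM in UN, 178, 172 and 152 in UH and 0.920, 0.595 and 0.465 in SN libraries, and the UN and SN values overlapped. The SN vs UH log2 fold change was -6.67 ± 0.24 (SE, limma adjusted p = 2.9e-09). Vegfa, the main endothelial growth factor gene, fell from 716, 939 and 1024 TPM to 83.3, 90.1 and 147, around its UN values of 100.2, 99.6 and 109 (log2 fold change -3.08, limma adjusted p = 3.3e-07). Its hypoxic level was lost in every SN library. Angptl4, which encodes a lipoprotein lipase inhibitor, fell past UN, from 80.2, 94.2 and 85.2 TPM in UH to 0.952, 1.15 and 1.56 in SN, against 17.1, 12.5 and 13.2 in UN cells (SN vs UN -2.78, limma adjusted p = 4.0e-07). Adm (adrenomedullin) and Apln (apelin) were lost as well, with SN vs UH log2 fold changes of -6.18 and -3.30.

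Vegfc kept its level, under either other scaling as well. It was at 16.5, 8.54 and 9.05 TPM in UN, 30.8, 31.3 and 36.5 in UH and 29.8, 28.3 and 30.9 in SN libraries. All SN values stood above all UN values, and they overlapped with UH at the upper end. The SN vs UN log2 fold change was 1.37 (limma adjusted p = 2.3e-04), and that against UH was -0.14 with a 95% interval of -0.56 to 0.28. Angpt1, which encodes the agonist of the TIE2 receptor, stayed low, at 6.92, 19.8 and 20.5 TPM in UN, 1.49, 1.84 and 2.33 in UH and 1.98, 1.71 and 3.35 in SN cells. SN and UH overlapped, and UN1 was the lowest UN library but still above them. Cxcl12, a chemokine gene that hypoxia had left at its UN level, was lower in SN cells, at 45.7, 43.9 and 32.7 TPM against 441, 527 and 579.7 in UH (log2 fold change -3.64, limma adjusted p = 4.6e-09).

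Mitophagy and stress genes with a hypoxic peak lost it. Bnip3 was at 43.3, 57.2 and 58.1 TPM in UN, 825, 808 and 951 in UH and 50.5, 49.9 and 72.4 in SN libraries (SN vs UH -3.90, limma adjusted p = 7.5e-09). Bnip3l, the second mitophagy receptor gene, fell by 2.89 on the log2 scale (limma adjusted p = 3.0e-08). In both, SN and UH values lay far apart. Ero1l was at 17.5, 13.1 and 15.02 TPM in UN, 602, 755 and 880.4 in UH and 15.3, 13.8 and 16.4 in SN libraries, so that the UN and SN ranges coincided. Its SN vs UH log2 fold change was -5.51 ± 0.21 (SE, limma adjusted p = 4.1e-09) and that against UN was 0.00 with a 95% interval of -0.46 to 0.46. Of 23 genes of the unfolded protein and integrated stress responses, 7 had risen and lost their level and 9 were lower in SN than in UH cells. Ddit3, which encodes the stress factor CHOP, was at 336, 338 and 281 TPM in UH and 90.4, 66.5 and 158 in SN libraries (log2 fold change -1.68, limma adjusted p = 2.1e-04). SN3 was the highest SN library and still under the UH values. Of 16 oxygen-dependent demethylase genes, 3 were lower (18.8%, against 9.17% of all genes) and none was called higher. The histone demethylase genes Kdm3a and Kdm4b also lost their rise, with SN vs UH log2 fold changes of -1.49 and -1.65.

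Other genes with a large hypoxic rise were lost too. Gipr, which encodes the receptor for the gut hormone GIP, went from at most 0.0841 TPM in UN to 61.5, 82.7 and 79.0 in UH libraries, and was listed at 0 in SN1 and SN3 and at 0.0451 in SN2. Tnfrsf9, which encodes the costimulatory receptor 4-1BB, was at 12.2, 2.87 and 3.86 TPM in UN, 322, 377 and 358 in UH and 1.51, 1.99 and 2.44 in SN libraries. Both had a hypoxic level far from the other groups, and both lost it (SN vs UH -6.20 and -6.90, limma adjusted p = 4.3e-09 and 3.2e-08). Ankrd37, a HIF target of unsettled function, stayed a little above UN, at 5.38, 4.70 and 5.59 TPM in UN, 232, 203 and 183 in UH and 12.1, 6.35 and 13.5 in SN libraries, and after quantile normalization it counted as partly kept.

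The metallothioneins, small proteins that bind zinc and copper, had risen steeply in hypoxia. Mt1 was at 235, 184 and 177 TPM in UN, 6046, 4574 and 4138 in UH and 109, 127 and 215 in SN libraries. SN1 and SN2 lay under the UN values and SN3 among them. Mt2 was at 35.7, 50.8 and 39.5 TPM in UN, 2307, 1837 and 1767 in UH and 5.05, 4.08 and 6.998 in SN libraries. Its SN values were all under all UN values (SN vs UH -8.29, SN vs UN -2.76, limma adjusted p = 8.2e-11 and 4.6e-07).

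**Figure D3:**
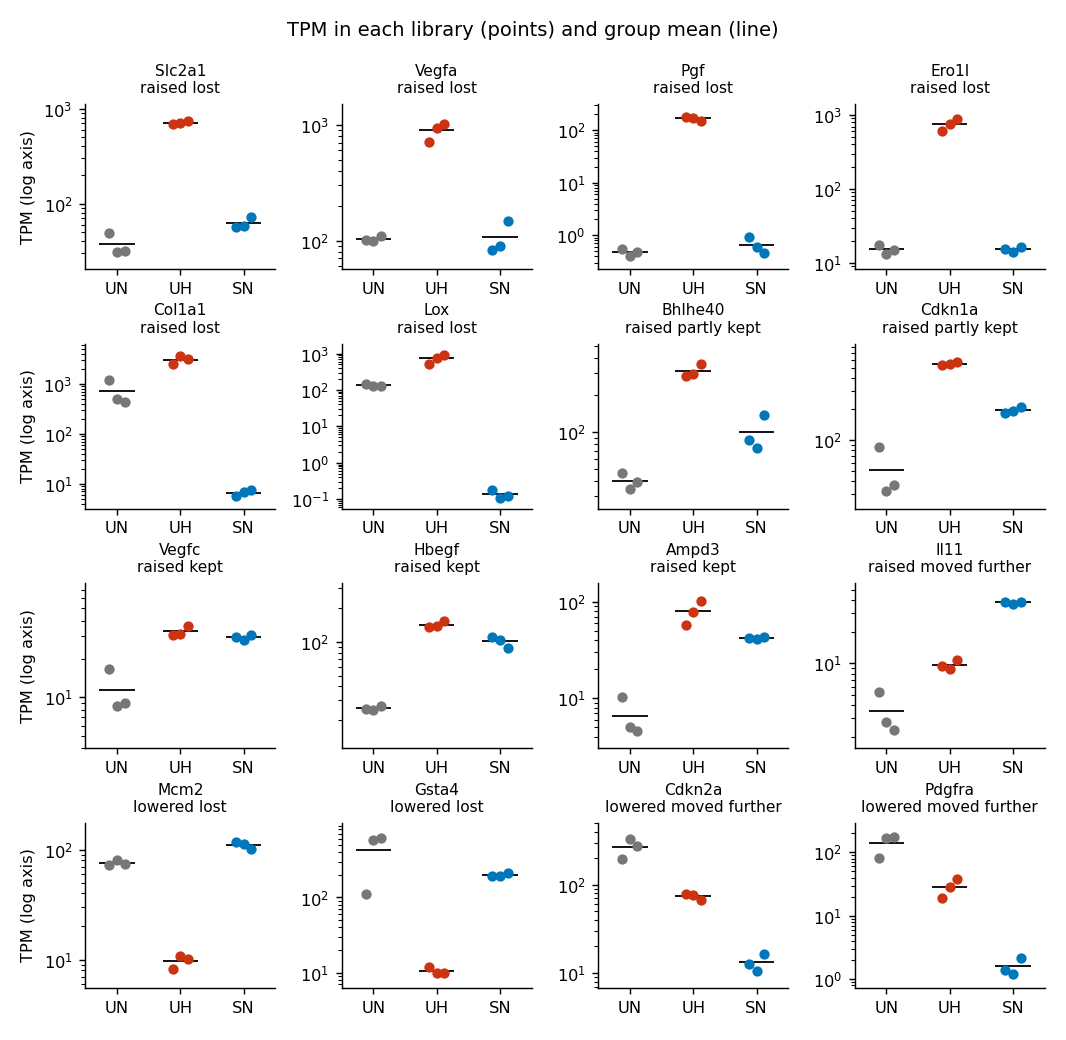
Points are the TPM of single libraries on log axes, with UN in grey, UH in red and SN in blue, lines are group means of 3 libraries, and each panel names the gene and its class. Slc2a1, Vegfa, Pgf and Ero1l returned to near UN, Col1a1 and Lox fell far under it, and Vegfc, Hbegf and Ampd3 stayed up, while Cdkn2a and Pdgfra, already low in UH, were lower again in SN.

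Collagens and the enzymes that mature them lost their hypoxic level, and part of them went well past the normoxic one. Of 16 collagen genes, 8 had risen in UH cells and all 8 lost the rise, 4 of them past UN. Col1a1, an α chain of type I collagen (chr11:94936224-94953042, plus strand in GENCODE M21), was at 1186, 499 and 428 TPM in UN, 2478, 3556 and 3119 in UH and 5.65, 6.71 and 7.62 in SN libraries. The SN values were under all others, including the low UN2 and UN3 values. Its SN vs UH log2 fold change was -8.63 ± 0.33 and its SN vs UN change -6.38 (limma adjusted p = 4.1e-09 and 9.2e-08). Col3a1 was at 1959.8, 222 and 173 TPM in UN, 1273, 2144 and 1824 in UH and 1.04, 0.856 and 1.65 in SN libraries. UN1 overlapped with UH here, and after quantile normalization Col3a1 was not called as raised in hypoxia. Its SN level was nonetheless under all UN values (SN vs UN -7.62, limma adjusted p = 8.5e-06). Col1a2 behaved likewise, with 0.375, 0.198 and 0.366 TPM in SN against 714, 1011 and 923 in UH libraries. Col18a1, a basement membrane collagen, was the member that rose, from 72.7, 98.7 and 106 TPM in UH to 357, 333 and 319 in SN (log2 fold change 1.87, limma adjusted p = 2.7e-06).

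Of 16 genes for collagen maturation, 13 were lower in SN than in UH cells and none was called higher, with a median log2 fold change of -3.02 against 0.09 for all genes. Lox, the lysyl oxidase gene that crosslinks collagen, was at 145, 128 and 128 TPM in UN, 516, 770.4 and 918 in UH and 0.176, 0.112 and 0.123 in SN libraries. Loxl2, a relative of Lox, went from 378, 507 and 553 TPM in UH to 0.220, 0.409 and 0.323 in SN libraries. For Lox the groups were far apart in both steps (SN vs UH -9.30, SN vs UN -6.89, limma adjusted p = 4.5e-11 and 9.9e-10). P4ha1 and Plod2, hydroxylase genes that act before crosslinking, stopped near their UN level instead. P4ha1 was at 93.4, 49.9 and 50.3 TPM in UN, 497, 527 and 553 in UH and 72.8, 63.5 and 67.6 in SN libraries. Its SN values fell among the UN values, while Serpinh1, the collagen chaperone gene, was lowered in SN cells without a call in hypoxia, from 362, 419.6 and 374 to 1.69, 1.56 and 3.14 TPM.

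Genes outside these lists shared the fall past UN. Timp3, an inhibitor of matrix proteases, had the largest drop from UH to SN under the rule for named genes, from 1409.7, 2000.1 and 2205 TPM in UH to 0.798, 0.908 and 1.37 in SN libraries, against 236, 202 and 196 in UN (SN vs UH -9.84 ± 0.19, SE, limma adjusted p = 4.5e-11). Tpm2 (a tropomyosin of contractile cells) and Krt19 (a keratin of bile duct cells) had SN vs UH log2 fold changes of -8.34 and -8.06. The SN values of all 3 genes were below every UN value. Of 22 mesenchymal and fibroblast genes, 8 were lower and 5 higher in SN than in UH cells (8 and 4 after either other scaling), so the list split. The higher ones were S100a4, Snai2, Pdgfrb, Zeb1 and Dcn, with log2 fold changes of 2.14, 1.56, 1.48, 1.34 and 1.14. Snai1, an inducer of the mesenchymal state, went from 80.1, 75.8 and 84.8 to 0.611, 0.755 and 0.708 TPM (log2 fold change -5.58, limma adjusted p = 9.5e-11). Postn, Myl9 and Acta2 were lower in SN cells without a hypoxia call, with log2 fold changes of -5.74, -5.75 and -3.29. UN1 was far above UN2 and UN3 for Acta2, at 845, 172 and 162 TPM. Vim, the intermediate filament gene of mesenchymal cells, returned from 5918, 6188 and 5576 TPM in UH to 1124, 1121 and 1072 in SN libraries, under but near its UN values of 1501, 1409 and 1278.

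Among the 78 raised genes that kept their level were a secreted growth factor, an AP-1 subunit and surface molecules. Ampd3 (chr7:110768206-110812405, plus strand in GENCODE M21), the first by the rule for named genes, was at 10.2, 5.07 and 4.60 TPM in UN, 56.7, 78.8 and 102 in UH and 42.5, 40.8 and 43.3 in SN libraries. SN lay between the other groups with no overlap (SN vs UN 2.57, limma adjusted p = 1.6e-05), and the difference from UH was -0.85 (95% interval -1.41 to -0.30). After median-of-ratios or quantile scaling Ampd3 was classed as partly kept. Hbegf, an EGF receptor ligand, was at 24.9, 24.5 and 26.9 TPM in UN, 135, 138 and 152 in UH and 109.7, 104.8 and 88.3 in SN libraries. On the log2 scale 80.0% of its rise remained. Its SN vs UH difference was -0.49 (95% interval -0.79 to -0.18) and its SN vs UN difference 1.94 (limma adjusted p = 1.2e-06). Fosl1, the AP-1 subunit FRA1, was at 33.7, 35.7 and 44.8 TPM in UN, 203, 236 and 212 in UH and 122, 143 and 146 in SN libraries. For both genes SN stood clear of UN and somewhat under UH. Havcr2, which encodes the immune checkpoint receptor TIM-3, was at 0.834, 0.300 and 0.457 TPM in UN, 11.8, 11.9 and 11.6 in UH and 5.34, 5.26 and 6.03 in SN libraries, again with no overlap (SN vs UN 2.11, limma adjusted p = 3.5e-05), and it too counted as partly kept after either other scaling.

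Other kept genes matched or exceeded their hypoxic level. Prom1, which encodes the progenitor marker CD133, was at 3.25, 0.379 and 0.550 TPM in UN, 7.08, 6.27 and 9.20 in UH and 13.8, 11.2 and 7.57 in SN libraries. SN and UH overlapped, UN1 was the highest UN library and stayed under both (SN vs UN 2.47, limma adjusted p = 4.7e-04, SN vs UH 95% interval -0.38 to 1.298). Itgb2, the β2 integrin gene of leukocytes, was at 5.76, 1.14 and 1.54 TPM in UN, 9.70, 11.9 and 10.9 in UH and 13.6, 19.2 and 24.2 in SN libraries. SN lay above UH in every library, while Ptprc stayed at the level given above. Rbp4, the retinol carrier made by hepatocytes, was at 91.98, 64.1 and 73.7 TPM in UN, 243, 199 and 229 in UH and 254, 269 and 247 in SN libraries, with SN above UH in each library (SN vs UN 1.75, limma adjusted p = 2.1e-06). Plvap, a gene of fenestrated endothelium, was kept at a low level, 1.03, 1.39 and 1.61 TPM in SN against 0.244, 0.0383 and 0.185 in UN libraries. Its log2 fold change of 1.02 against UN fell to 1.00 without SN2, 0.93 without SN3 and 0.94 without UN2, under the limit.

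Cdkn1a, which encodes the cell cycle inhibitor p21, was partly kept. It was at 86.5, 32.6 and 36.6 TPM in UN, 529.8, 545 and 574 in UH and 181, 192 and 211 in SN libraries. No groups overlapped, and 57.5% of the hypoxic difference on the log2 scale remained (SN vs UN 2.02, SN vs UH -1.49, limma adjusted p = 2.2e-04 and 8.6e-04). Of the 6 raised genes that moved further, Il11, a cytokine gene, was at 5.38, 2.76 and 2.31 TPM in UN, 9.42, 8.89 and 10.8 in UH and 38.9, 37.2 and 38.5 in SN libraries. Each step was free of overlap (SN vs UH 1.88, limma adjusted p = 1.1e-05). Grem1, a secreted BMP antagonist, and Lepr, the leptin receptor gene, took the same course, with SN vs UH log2 fold changes of 1.301 and 1.89. Sprr2g, an epithelial envelope gene, reached 436, 655 and 750.2 TPM in SN libraries, and its SN vs UH log2 fold change of 1.19 dropped to 0.95 after median-of-ratios scaling, where it counted as kept.

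Genes of DNA replication and mitosis, low in UH cells, were restored. Of 25 replication genes, 24 had fallen in hypoxia and the same 24 were higher in SN than in UH cells, with a median log2 fold change of 2.57 against 0.09 for all genes. All 24 mitosis genes had fallen and all 24 were higher in SN cells (median 2.05), and after median-of-ratios or quantile scaling 23 were. Mcm2, a subunit of the replicative helicase, was at 72.8, 80.1 and 73.4 TPM in UN, 8.18, 10.7 and 10.03 in UH and 118, 111 and 102 in SN libraries. Its SN values exceeded all UN values (SN vs UH 3.40 ± 0.21, SE, limma adjusted p = 1.2e-07). Rrm2, a ribonucleotide reductase subunit, ended under UN, at 73.5, 69.5 and 52.8 TPM in SN, 9.02, 9.48 and 10.3 in UH and 85.2, 106 and 108 in UN libraries. Mki67, the proliferation marker Ki-67, was at 49.2, 43.6 and 54.3 TPM in UN, 9.01, 16.5 and 18.999 in UH and 79.0, 78.7 and 63.7 in SN libraries. SN and UH were well apart (log2 fold change 2.29, limma adjusted p = 3.4e-06). Ccnd1, the cyclin D1 gene, exceeded its normoxic level, with 186, 152 and 153 TPM in UN, 29.4, 34.2 and 35.1 in UH and 519, 533 and 350.5 in SN libraries (SN vs UN 1.49, limma adjusted p = 4.7e-05).

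**Figure D4:**
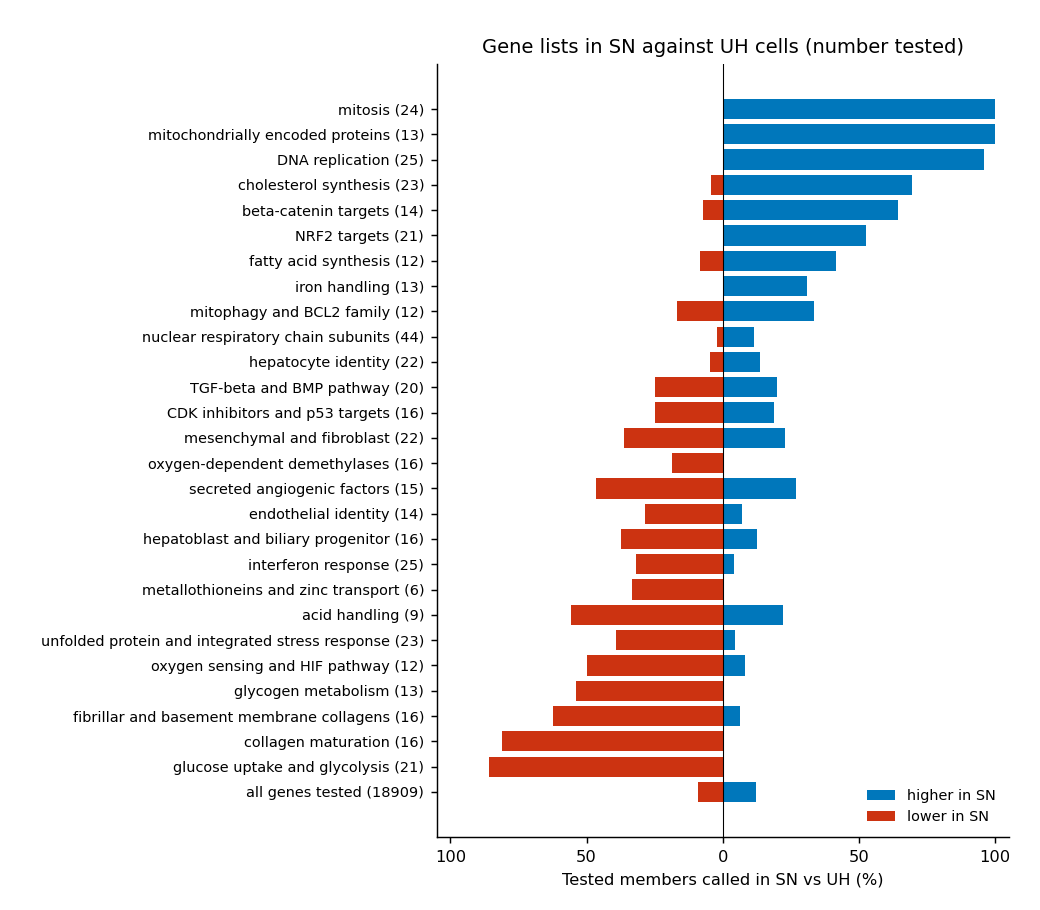
Bars give the percentage of the tested members of each list (number in parentheses) called higher (blue, right) or lower (red, left) in SN than in UH cells. The lowest bar gives all 18909 genes (12.3% higher, 9.17% lower), glycolysis and collagen maturation extend furthest to the left, and mitosis, mitochondrially encoded proteins and DNA replication furthest to the right.

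Sterol synthesis and the mitochondrial genome followed. Of 23 genes of cholesterol synthesis and uptake, 16 were higher and 1 lower in SN than in UH cells, and 13 and 1 after either other scaling. Hmgcs1, which makes the precursor of mevalonate, was at 53.7, 54.1 and 54.5 TPM in UN, 10.8, 13.0 and 13.7 in UH and 40.7, 41.0 and 59.3 in SN libraries. SN values lay around those of UN (SN vs UH 1.81, limma adjusted p = 9.6e-07). The lower member was Sqle, the oxygen-using squalene epoxidase, which went from 66.1, 78.1 and 84.9 to 28.3, 28.6 and 34.7 TPM (log2 fold change -1.29, limma adjusted p = 1.0e-04). All 13 protein genes of the mitochondrial genome were higher in SN than in UH cells (12 after median-of-ratios scaling), with a median log2 fold change of 2.06. Of 44 nuclear genes for respiratory chain subunits, 5 were higher and 1 lower, but 1 and 2 after median-of-ratios scaling.

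NRF2 targets, which detoxify oxidants in a line driven by mutant NRF2, rose in part. Of 21, 11 were higher in SN than in UH cells and none was called lower (10 and 1 after median-of-ratios scaling). Gsta4, a glutathione transferase gene, was at 109.7, 572 and 614 TPM in UN, 11.97, 10.03 and 10.1 in UH and 193, 193 and 211 in SN libraries. UN1 was the lowest UN library and fell under the SN values, so that Gsta4 returned to UN with it (SN vs UN -0.76) and was partly kept low without it (SN vs UN -1.57). The SN vs UH log2 fold change was 4.10 (limma adjusted p = 3.4e-05). Gclm, a subunit of the enzyme that starts glutathione synthesis, was partly kept low, at 382, 754 and 782 TPM in UN, 84.0, 92.4 and 104.9 in UH and 216, 233 and 234 in SN libraries. Ugdh, which makes the donor for glucuronidation, was raised and kept (partly kept after median-of-ratios scaling), with 179, 127 and 143 TPM in UN, 543, 582 and 702 in UH and 349.5, 355 and 355 in SN libraries. For both genes SN lay between UN and UH without overlap. Aldh3a1, an aldehyde dehydrogenase gene, passed its normoxic level, with 18.97, 42.4 and 41.2 TPM in UN, 1.77, 1.18 and 2.20 in UH and 92.7, 86.4 and 179.9 in SN libraries (SN vs UH 5.41, limma adjusted p = 9.9e-08).

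The largest gain over UH cells under the rule for named genes was that of Slco4a1, an organic anion transporter gene. It was at 20.8, 3.87 and 4.24 TPM in UN, 1.62, 1.69 and 2.20 in UH and 192, 182 and 185 in SN libraries. SN stood far above both groups (SN vs UH 6.05 ± 0.43, SE, limma adjusted p = 4.1e-07), while its fall in hypoxia rested on UN1 and was -0.84, not called, without it. Mmp9, a gelatinase gene, and Ppbp, a platelet chemokine gene, also passed UN, with SN vs UH log2 fold changes of 5.14 and 4.67. Cd14, an endotoxin co-receptor gene, rose from 27.4, 23.6 and 28.3 TPM in UH to 294, 329 and 330.1 in SN libraries (log2 fold change 3.54, limma adjusted p = 2.3e-09).

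The 347 genes that stayed low included matrix proteins and some regulators of the hepatocyte state. Limch1, an actomyosin regulator, was at 5.86, 38.4 and 39.2 TPM in UN, 0.188, 0.418 and 0.491 in UH and 0.676, 0.529 and 0.365 in SN libraries. SN and UH overlapped and both lay under UN1, the lowest UN library (SN vs UN -3.87, limma adjusted p = 2.0e-04, SN vs UH 95% interval -1.003 to 1.32). Fmod and Ogn, small proteoglycans that coat collagen fibrils, were likewise low in both, with SN vs UN log2 fold changes of -3.94 and -3.43. Of 22 hepatocyte genes, 3 were higher and 1 lower in SN than in UH cells (3 and 3 after median-of-ratios scaling). Hnf4a, the master regulator of hepatocytes, was at 1.70, 4.86 and 4.98 TPM in UN, 0.225, 0.101 and 0.156 in UH and 0.429, 0.203 and 0.159 in SN libraries, and Foxa2 was at 10.2, 11.1 and 13.1, 3.98, 3.04 and 3.33 and 4.05, 5.07 and 4.08. Neither regained the UN range (SN vs UN -1.86 and -1.21, limma adjusted p = 1.7e-04 and 1.1e-04), though Foxa2 missed the limit after quantile normalization. Of 6 hepatocyte genes lowered in hypoxia, 4 stayed low and 2 returned (2 and 2 after quantile normalization). Those that returned were Nr1h4 and Hp (SN vs UH 1.64 and 3.31). Cebpa also stayed low (SN vs UN -1.15). Foxa1 was not called in hypoxia, with means of 7.27 TPM in UN, 9.90 in UH and 9.10 in SN cells. Of 25 interferon response genes, 8 were lower (32.0%, against 9.17% of all genes) and 1 higher (4.0%, against 12.3%) in SN than in UH cells. Gbp2, an interferon-induced GTPase gene, was lowered and fell further with TPM as deposited but was not called in hypoxia after median-of-ratios or quantile scaling, with 34.1, 48.8 and 46.1 TPM in UN, 16.3, 16.4 and 18.4 in UH and 7.16, 5.62 and 7.32 in SN libraries.

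Of the 19 genes that stayed low in part, Islr and Dio3 are given here. Islr, a marker of mesenchymal stroma, was at 51.6, 245 and 218 TPM in UN, 4.44, 4.86 and 5.76 in UH and 14.3, 14.7 and 22.8 in SN libraries. Dio3, which inactivates thyroid hormone, was at 15.2, 36.9 and 34.5 TPM in UN, 1.35, 1.25 and 1.2998 in UH and 6.66, 7.45 and 5.17 in SN libraries. For both, SN lay between UH and UN without overlap (SN vs UH 1.58 and 1.68, SN vs UN -2.98 and -1.92, limma adjusted p at most 0.012). The number of such genes was 43 without UN1 and 12 without SN3.

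Levels of 113 lowered genes fell further in SN cells. Pdgfra, a receptor of mesenchymal cells, was at 80.4, 168 and 176 TPM in UN, 19.1, 28.7 and 37.5 in UH and 1.38, 1.21 and 2.17 in SN libraries. The groups formed a descending order without overlap (SN vs UH -3.48, SN vs UN -5.72, limma adjusted p = 2.0e-06 and 1.1e-07). Cdkn2a, whose per-group ranges are given above, took the same order (SN vs UH -2.42, SN vs UN -4.22, limma adjusted p = 9.9e-07 and 3.0e-08). Has2, a hyaluronan synthase gene, was at 27.04, 42.8 and 41.6 TPM in UN, 4.26, 4.56 and 6.57 in UH and 0.0585, 0.0363 and 0.337 in SN libraries. Slc1a3, a glutamate transporter gene, fell to 0.0745, 0.194 and 0.135 TPM. Of 14 β-catenin targets, 9 were higher in SN than in UH cells, and Rnf43, which encodes a feedback inhibitor of Wnt receptors, was the 1 that was lower. It was at 3.97, 10.3 and 9.54 TPM in UN, 1.78, 3.599 and 3.18 in UH and 0.175, 0.0572 and 0.113 in SN libraries, in the same descending order. Its fall in hypoxia was not called after median-of-ratios or quantile scaling.

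Of the 18909 genes tested, 15655 had not been moved past the limits by hypoxia of unsorted cells. Their share was smaller among SN vs UH calls, 1062 of the 2319 higher and 818 of the 1734 lower ones. Tek, the gene whose promoter drove the sorted reporter, was among the former. It was at 0.133, 0.124 and 0.141 TPM in UN, 0.158, 0.226 and 0.0853 in UH and 2.69, 2.70 and 2.07 in SN libraries (SN vs UH 1.59, limma adjusted p = 7.0e-07), so that UN and UH overlapped and SN stood apart. SN cells had been sorted by the activity of this promoter on the reporter, so the higher level of its own gene is a check of the sort and not a separate finding. Of 14 endothelial genes that passed the filter, Tek was the 1 that was higher, and 4 were lower in SN than in UH cells. Flt1, a VEGF receptor gene, had risen in hypoxia and lost its level, with 3.599, 1.76 and 2.19 TPM in UN, 17.8, 23.1 and 27.98 in UH and 1.33, 1.501 and 1.15 in SN libraries. Eng, the endoglin gene, fell past UN, from 34.8, 43.6 and 41.1 TPM in UH to 1.16, 1.20 and 1.07 in SN (SN vs UN -2.90, limma adjusted p = 3.8e-04). Trf was at 3.36, 0.921 and 2.24 TPM in UN, 3.77, 6.46 and 3.26 in UH and 37.9, 42.4 and 61.4 in SN libraries, a log2 fold change of 3.15 over UH (limma adjusted p = 3.7e-06). Without UN1, and after median-of-ratios or quantile scaling, Trf counted as raised in hypoxia and moved further.

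Progenitor genes split. Of 16 hepatoblast and biliary progenitor genes, 6 were lower and 2 higher in SN than in UH cells. Dlk1, a marker of hepatoblasts, was at 13.5, 83.8 and 78.7 TPM in UN, 80.4, 81.9 and 74.9 in UH and 0.270, 0.301 and 0.596 in SN libraries, with UN1 far under UN2 and UN3 and SN under all (SN vs UH -5.86, limma adjusted p = 2.6e-06). Igf2, a fetal growth factor gene, went from 76.5, 68.6 and 84.4 to 2.82, 2.66 and 5.22 TPM (log2 fold change -4.12, limma adjusted p = 1.3e-07). Afp, the fetal albumin homologue, rose from 1.15, 1.28 and 1.22 to 8.14, 9.65 and 9.80 TPM (log2 fold change 2.20, limma adjusted p = 7.0e-06). The Wnt effector gene Lef1 rose as well, from 1.59, 3.39 and 2.33 to 11.96, 19.8 and 19.5 TPM.

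Larger lists that the study took mostly from a public collection were counted the same way. Of 176 tested genes in its hypoxia list, 87 were lower and 15 higher in SN than in UH cells, with a median log2 fold change of -1.01 against 0.09 for all genes. In UH cells 83 of them had risen, and 74 of these levels were lost, 17 past UN, while 4 were kept and 2 partly kept. Of 1687 tested genes in its EC-specific list, 254 were higher (15.1%, against 12.3% of all genes) and 328 lower (19.4%, against 9.17%), with a median of -0.01, and after median-of-ratios scaling 184 were higher and 396 lower. Of the 188 that had risen in hypoxia, 150 (79.8%) lost the level and 15 (7.98%) kept it, against 76.3% and 7.56% of all raised genes. Of 173 hepatocyte-specific genes, 40 were higher and 22 lower (33 and 29 after median-of-ratios scaling). Among the smaller lists not yet described, 5 of 12 fatty acid synthesis genes were higher and 1 lower (2 and 2 after median-of-ratios scaling), 4 of 20 TGF-β and BMP pathway genes were higher and 5 lower, 4 of 13 iron handling genes were higher, 3 of 16 CDK inhibitors and p53 targets were higher and 4 lower, 4 of 12 mitophagy and BCL2 family genes were higher and 2 lower, and 1 of 6 tested leukocyte genes was higher.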

How the data were processed

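RNA from 12 monolayer cultures of BN1 cells was sequenced from stranded mRNA libraries, and 9 of them (UN, UH and SN, 3 each) are compared here. The authors ran nf-core/rnaseq 3.12.0, the submitters' notes name the mm10 build, and the deposited table holds TPM, with 1 value per gene and library. The aligner and annotation are not given in the sources used here. TPM keeps no depth, so no counting errors are given and precision rests on the spread between 3 replicates, which the study calls independent. Supplementary statistics of the study's own comparisons were not used.

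TPM values entered limma 3.58.1 (R 4.3.3) on the scale log2(TPM + 1), as 4 group means over all 12 libraries with a trended empirical Bayes variance, for genes whose mean reached 0.1 TPM. Calls needed a fold above 2 and, within a contrast, a p below 0.05 after Benjamini-Hochberg adjustment. On simulated data for SN against UH with 200 changed genes, 199 (99.5%) were recovered, with 5 other calls over 18909 genes. The changed genes were all well expressed in UH cells and were moved well past the 2-fold limit. Recovery of low genes or small changes was thus not simulated. How many of the real differences the calls made here recover was not tested. Gene identifiers were found in GENCODE M21 (GRCm38) for 98.8%.

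Named genes came from a rule: the 10 largest SN vs UH changes in each direction and the 8 largest in each class, both among genes reaching a group mean of 5 TPM without overlap of the libraries compared, the 4 largest SN vs UH changes in each list, the glycolysis, oxygen sensing, angiogenic, mitophagy, acid, collagen and endothelial lists, and Tek and Cdkn2a. Not all are printed, and some items are not reported here. Ankrd37, Lepr, Mki67, Hmgcs1, Sqle, Ugdh, Rbp4, Hnf4a, Foxa2, Pdgfra, Ddit3, Vim, Acta2, Afp, Gbp2 and Rnf43 are outside it and were chosen after their values were seen. So are S100a4, Snai2, Pdgfrb, Zeb1, Dcn, Cebpa and Foxa1, which were added as further members of their lists and are not among the values recomputed below. Nr1h4 and Hp came from the rule and are not among those recomputed values either. Members and lists were chosen with earlier results of these data known. The alternatives were another pseudocount, filter, scaling, moderation or set of groups, a replicate block, and leaving out each library. Python 3.11.15, pandas 2.3.3 and matplotlib 3.10.9 made tables and figures.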

Additional observations from a re-analysis of the deposited data

How the results depend on the processing

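The 98 printed gene values were recomputed to give 1764 values under the alternatives, of which 1744 kept their direction and side of the limits, 17 lost and 1 gained a call. The 2 that changed sign were those of Egln2 (SN vs UH), a gene not called, at -0.13 after median-of-ratios scaling and -0.13 after quantile normalization. A pseudocount of 0.1 gave 2772 genes lower in SN vs UH, 1580 raised by hypoxia (34 partly kept, 160 kept, 19 moved further), and, among lowered ones, 38 partly kept, 549 kept and 284 moved further, with a retained share of 20.1%. Median-of-ratios scaling gave 1566 raised (32 partly kept, 122 kept, 12 moved further, retained share 5.02%) and 1221 lowered (701 lost, 10 partly kept, 217 kept, 12.1%). Quantile normalization gave 31 partly kept, 137 kept and 11 moved further among raised genes (9.12%) and 1343 lowered (762 lost, 216 kept, 67 moved further, 13.0%). The lowered share was 14.4% at a minimum mean TPM of 1 and 14.5% without mitochondrial transcripts. Without single replicates the raised genes gave 13 to 27 partly kept, 61 to 111 kept and 5 to 19 moved further. Their retained share was -1.18% to 1.18%. The lowered ones gave 12 to 43 partly kept, 289 to 539 kept and a retained share of 11.5% to 28.5%. The highest values were those without UN1. The cause was not tested. With a replicate block, 2328 genes were higher and 1736 lower in SN vs UH, and Bhlhe41 (SN vs UN 1.02) lost its call. Deviations of same-numbered SN and UH libraries from their group means correlated at -0.12, 0.08 and -0.03, so the numbers were not taken as pairs. Depth is unknown, and low genes rest on the spread of 3 libraries.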

Other observations

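Sorted cells returned to 1% oxygen for 2 days (SH) give further values for the same classes. The median difference from UN on the log2(TPM + 1) scale of the 647 raised genes that ended near UN was 1.70 in UH, -0.08 in SN and 1.16 in SH cells. For the 140 that fell past UN it was 1.85 in UH, -1.79 in SN and -0.87 in SH cells. Ero1l was at 808, 937 and 507 TPM in the SH and 602, 755 and 880.4 TPM in the UH libraries, and Bnip3 at 931, 1007 and 802 TPM in SH and 825, 808 and 951 TPM in UH, so the groups overlapped for both. Pgf was at 4.39, 4.09 and 1.61 TPM and Lox at 0.807, 0.746 and 0.529 TPM in SH, each below every UH library. The kept raised genes had a median difference from UN of 1.53 in UH, 1.39 in SN and 2.19 in SH cells, and Hbegf reached 323, 319 and 224 TPM in SH. The lowered genes that moved further stood at -1.51 in UH, -3.50 in SN and -3.68 in SH cells. The differences share the UN libraries, and no test of them was made.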
